A study of Mus musculus with 2 samples.

Results

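The genes described here encode the NADPH oxidase of phagocytes (Cybb, Cyba, Ncf1, Ncf4 and Rac2), a related oxidase of non-phagocytic cells (Nox4) and enzymes that remove superoxide and hydrogen peroxide (Sod2, Sod3 and Cat). They were selected by name, and each is represented by its probe set with the highest mean. All 9 had a probe set of their own, among 19938 genes of the array that did. They were read in regenerating tibialis anterior muscle, the muscle of the front of the lower leg, of mice with the strain label 129Sv/C57BL6. The groups were wild type (Mef2a +/+) and Mef2a knockout (Mef2a -/-), where Mef2a is the gene of a transcription factor that drives muscle genes. In both groups 50 µl of 10 µM cardiotoxin, a venom peptide that kills fibres, had been injected into the muscle 7 days before it was taken, and no uninjured muscle was used here. Males and females aged 2 to 4 months were used. RNA of 5 mice was pooled within each genotype and each pool was put on 1 array. There is therefore no replicate, no spread between mice and no test, and every difference below is that between 2 arrays. Neither the deleted part of Mef2a nor the cells that lack it are given in the labels.

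The phagocyte oxidase is a membrane enzyme that passes electrons from NADPH to oxygen and so makes superoxide. Its catalytic core sits in the membrane of phagosomes and of the cell surface, and its regulatory subunits wait in the cytosol until the cell is stimulated. Superoxide dismutases turn superoxide into hydrogen peroxide, and catalase, glutathione peroxidases and peroxiredoxins break hydrogen peroxide down. In injured muscle the phagocyte oxidase is known from the macrophages and neutrophils that clear dead fibres, whereas the mitochondrial and peroxisomal antioxidant enzymes occur in nearly all cells.

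Values are log2 values as the authors normalized them with RMA, a method that corrects background, forces the arrays to 1 distribution and summarises the probes of each gene. A difference is the labelled knockout value minus the wild type value, so that 1 unit is a 2-fold difference. A gene counts as measurable here if at least 1 of its values is 4.40 or more, a floor set at the median of the table, and 11787 genes were. A level is not compared between genes, since probes differ in how well they bind. The exception is the search for the genes nearest to Cybb and to Cat.

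The Mef2a probe set stood at 8.92 in wild type and at 9.06 in the labelled knockout and was not lower there. Since the place of its probes relative to the deletion is not known, it does not check the genotype labels, and every direction given here rests on the labels.

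Of the 9 genes, 6 were at least 1.5-fold higher in the labelled knockout pool and 0 were 1.5-fold lower. Over the measurable genes as a whole these shares were 6.45% higher and 1.90% lower. At 2-fold, 3 of the 9 genes were higher (Sod3, Ncf4 and Cyba) and 0 were lower, beside 1.70% and 0.187% of measurable genes. The median difference over the 9 genes was 0.95, against 0.03 over all measurable genes. The differences formed separate ranges. The 5 oxidase subunits and Sod3 differed by 0.91 to 1.14, and Nox4, Sod2 and Cat by -0.24 to -0.05. All 9 genes reached the floor, 8 of them in both pools. Sod3 reached it through the labelled knockout pool alone, so that its place among the measurable genes already rests on its being higher there. In whole tissue RNA, more cells of a type and more RNA of a gene per cell cannot be told apart. The macrophage markers of the tissue were higher by a median of 0.98 in the same RNA.

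**Figure D1:**
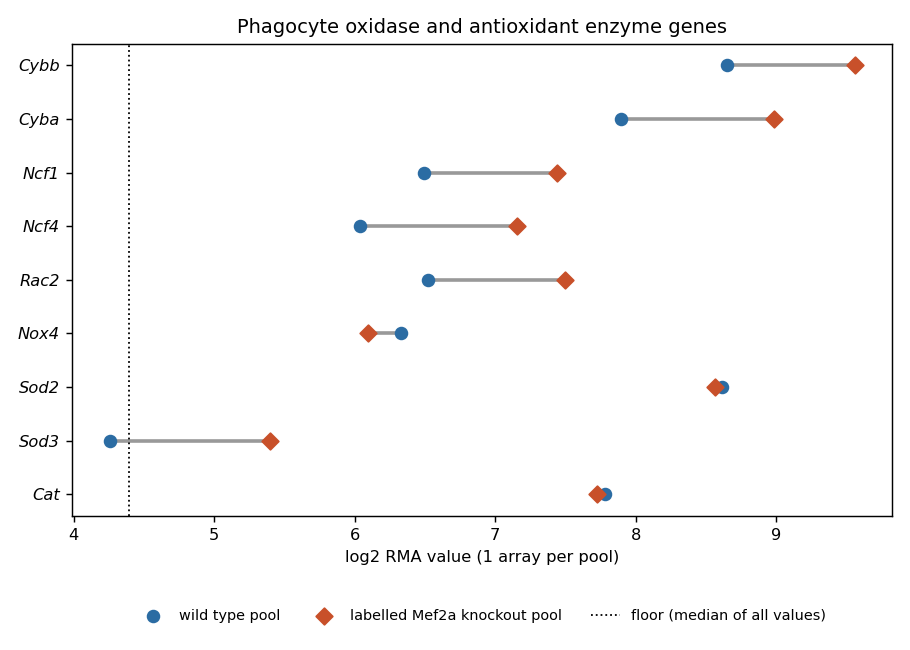
Log2 RMA values of the 9 genes in wild type (circles) and labelled Mef2a knockout (diamonds), 1 array per pool, with the floor of 4.40 as a dotted line. The 5 oxidase subunits and Sod3 lie 0.91 to 1.14 to the right in the labelled knockout pool, while the points of Sod2 and Cat nearly coincide and Nox4 lies 0.24 to the left.

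Promoter sequence was at hand for 6 of the 9 genes (Cybb, Cyba, Ncf1, Nox4, Sod2 and Cat) in RefSeq windows of GRCm38.p6, and not for Ncf4, Rac2 and Sod3. Each window belongs to 1 transcript start chosen by that table, and for Cybb and Nox4 other annotated starts lie further upstream. The 250 bases before this start are printed 5′ to 3′ for 3 subunit genes that were higher and for Sod2 and Cat, which differed little, so that the windows of both kinds can be set side by side. Capitals mark the letters searched on both strands: GAGGAA for PU.1, the myeloid factor encoded by Spi1, TGANTCA for AP-1, TGACNNNGC for the antioxidant response element bound by NRF2, the MEF2 site by its usual consensus and GGGCGG for Sp1. The AP-1 letters can lie inside those of the antioxidant response element.
Cybb (chrX:9469325-9469574, minus strand): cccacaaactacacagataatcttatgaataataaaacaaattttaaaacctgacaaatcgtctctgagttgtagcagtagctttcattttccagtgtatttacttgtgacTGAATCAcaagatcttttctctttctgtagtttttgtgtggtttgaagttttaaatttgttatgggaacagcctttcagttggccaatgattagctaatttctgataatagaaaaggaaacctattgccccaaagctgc
Cyba (chr8:122432941-122433190, minus strand): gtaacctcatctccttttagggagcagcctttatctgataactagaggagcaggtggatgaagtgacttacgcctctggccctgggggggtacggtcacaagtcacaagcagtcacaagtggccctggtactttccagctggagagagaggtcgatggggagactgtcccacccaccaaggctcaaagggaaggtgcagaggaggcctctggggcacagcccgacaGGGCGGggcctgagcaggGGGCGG
Ncf1 (chr5:134229626-134229875, minus strand): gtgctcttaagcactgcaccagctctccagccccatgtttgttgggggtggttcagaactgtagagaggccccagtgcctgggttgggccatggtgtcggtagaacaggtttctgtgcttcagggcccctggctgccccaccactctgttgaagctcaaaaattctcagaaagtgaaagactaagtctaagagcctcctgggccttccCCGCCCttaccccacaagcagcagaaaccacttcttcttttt
Sod2 (chr17:13007589-13007838, plus strand): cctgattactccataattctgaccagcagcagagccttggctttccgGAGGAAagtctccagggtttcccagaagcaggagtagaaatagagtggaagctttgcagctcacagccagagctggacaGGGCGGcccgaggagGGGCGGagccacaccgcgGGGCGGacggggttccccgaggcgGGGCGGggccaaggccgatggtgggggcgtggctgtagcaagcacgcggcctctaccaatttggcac
Cat (chr2:103485154-103485403, minus strand): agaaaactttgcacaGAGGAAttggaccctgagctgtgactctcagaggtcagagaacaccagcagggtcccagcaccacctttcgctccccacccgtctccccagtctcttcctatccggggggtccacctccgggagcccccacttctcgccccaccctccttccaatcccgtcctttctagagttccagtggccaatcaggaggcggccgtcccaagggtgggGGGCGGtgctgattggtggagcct

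The window of Cybb held 1 AP-1 match, TGAATCA, which begins 139 bases before the start. The window of Cyba held 2 Sp1 matches, 24 and 6 bases before the start, and that of Ncf1 held 1 on the opposite strand, 42 bases before it. PU.1 letters were in the windows of Sod2 (203 bases before the start) and Cat (235 bases), and not in those of Cybb, Cyba and Ncf1. Only the exact letters GAGGAA were searched for PU.1, so a window without them may still hold another form of its site. Sod2 held 4 Sp1 matches and Cat held 1. The Nox4 window, which is not printed, held 1 Sp1 match. The MEF2 site and the letters of the antioxidant response element were in none of these 6 windows. Over all 32851 RefSeq windows cut to the same 250 bases, 23.3% held the PU.1 letters, 6.75% those of AP-1, 10.2% those of the antioxidant response element, 2.92% the MEF2 site and 32.7% those of Sp1. A match describes these letters alone and is not evidence of binding, and a missing match is not evidence that a factor does not bind.

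The membrane core of the oxidase was higher in the labelled knockout pool in both of its chains. Cybb, which encodes the catalytic chain that carries flavin and heme, stood at 8.65 in wild type and at 9.56 in the labelled knockout, a 1.88-fold difference. Cyba, its partner chain, which steadies it in the membrane and docks the cytosolic subunits, read 7.90 and 8.99, a 2.13-fold difference. Of all measurable genes, 2.19% had a larger difference than Cybb and 1.30% a larger one than Cyba. Both chains are needed for a stable core, and their differences lay 0.18 apart on the log2 scale.

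The cytosolic subunits were higher by similar amounts. Ncf1, the organizer that carries the others to the membrane, stood at 6.49 in wild type and at 7.44 in the labelled knockout, 1.93-fold higher. Ncf4, which binds a phosphoinositide of the phagosome membrane, read 6.04 and 7.16, 2.18-fold higher. Rac2, the small GTPase of blood cells that switches the assembled enzyme on, read 6.52 and 7.49, 1.96-fold higher. Of measurable genes, 1.98%, 1.20% and 1.83% had a larger difference than Ncf1, Ncf4 and Rac2. Over all 5 subunits the differences spanned 0.21 on the log2 scale, from 0.91 to 1.12, with a median of 0.97. With 1 array per pool there is no error by which to order the subunits.

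The remaining genes of the complex did not all read higher. Rac1, the form of Rac found in nearly all cells, read 8.96 in both pools, with a difference of 0.00, while its blood cell counterpart Rac2 was 1.96-fold higher. The 2 values of Rac1 are the same to the last deposited digit, which holds for 254 of the 11787 measurable genes. Hvcn1, the proton channel that balances the charge moved by the oxidase, read 5.36 and 6.97, 3.04-fold higher and the largest difference of the complex. The rule for named genes leaves out Rap1a, a small GTPase found with the core (0.32), and Cybc1, a chaperone of the core (0.16), which are named here after their values were seen and lay within 1.5-fold. In all, 6 of the 9 measured genes of the complex were at least 1.5-fold higher and 0 lower, with a median of 0.95. Over the measurable genes these shares were 6.45% and 1.90%. The 6 are the 5 subunits already described and Hvcn1.

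**Figure D2:**
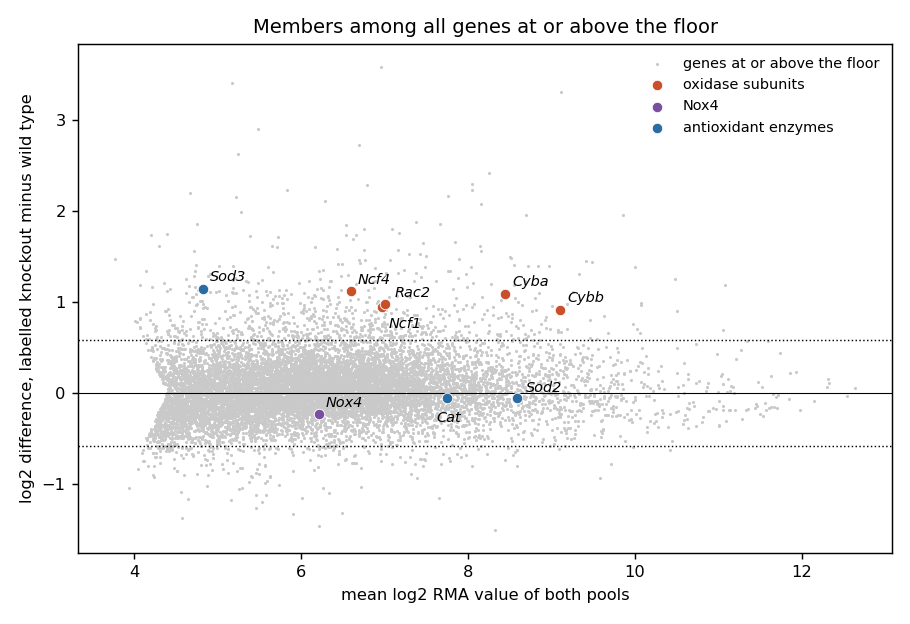
Labelled knockout minus wild type difference (vertical axis, log2) against the mean of both pools (horizontal axis, log2) for the 11787 measurable genes (grey) and the 9 genes described (coloured), with dotted lines at 1.5-fold. The 5 oxidase subunits lie between 0.91 and 1.12 over a wide range of means, Sod3 lies at 1.14 near the left edge, and Nox4, Cat and Sod2 lie inside the dotted lines.

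Genes that act on the oxidase from the stimulated cell surface were higher as well. Of 17 measured genes of this list, 14 were at least 1.5-fold higher and 0 lower, with a median of 0.93, beside 6.45% over the measurable genes. Itgb2 and Itgam, the chains of the integrin by which phagocytes bind complement-coated particles, were 4.21-fold (7.11 and 9.19) and 3.48-fold higher (6.20 and 7.99). Fgr, a kinase of the Src family, was higher by 1.23 and Btk, a kinase of blood cells, by 1.16 on the log2 scale. Btk stood at 4.15 in wild type, below the floor. It was measurable through the labelled knockout pool alone, so its place in this count already rests on its being higher there. The 3 genes within 1.5-fold were Vav2 (0.00), Vav3 (0.12) and Pik3cd (-0.08), named after their values were seen. With the trend of the difference on mean expression removed by loess, Arhgdib, also named after its value was seen, went from 0.63 to 0.57, under the limit.

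Nox4, a constitutively active oxidase of stromal, vascular and muscle cells that needs none of the cytosolic subunits, did not share the direction of the phagocyte enzyme. It stood at 6.33 in wild type and at 6.09 in the labelled knockout, a difference of -0.24 that lies within 1.5-fold. Of measurable genes, 39.9% had a difference of larger size. Its difference and that of Cybb, the catalytic chain of the same enzyme family, lay on opposite sides of 0. Of the 12 genes of the other NADPH oxidases and their regulators, 6 reached the floor, and 0 of these were past 1.5-fold in either direction. Sh3pxd2b, a podosome adaptor related to the oxidase organizers, differed by 0.46, Duoxa1, a maturation factor of a dual oxidase, by -0.46, and Noxo1, an organizer subunit of epithelia, by -0.19, to 4.32 below the floor. Nox1, Nox3, Noxa1, Duox1, Duox2 and Duoxa2 were below the floor in both pools.

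The 3 superoxide dismutases work in different compartments and did not share a difference. Sod3, the secreted enzyme of the extracellular matrix, stood at 4.25 in wild type and at 5.40 in the labelled knockout, 2.21-fold higher, and 1.09% of measurable genes had a larger difference. Its wild type value lay 0.14 below the floor, where RMA values understate differences, so the fold is poorly bounded. Sod2, the mitochondrial enzyme, read 8.62 and 8.56, a difference of -0.05, and 83.9% of measurable genes had a difference of larger size. Sod1, the cytosolic enzyme, read 9.24 and 9.21, a difference of -0.02. Sod1 and Sod2 thus read almost alike in both pools, and Sod3 alone among the dismutases was past 1.5-fold.

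Copper carriers that load Sod1 and Sod3 were partly higher. Atox1, the chaperone that hands copper to the secretory pathway, was higher by 0.63 (7.60 and 8.23), and Slc31a1, the copper importer, by 0.60 (6.03 and 6.63). With the loess trend removed these became 0.58 and 0.54, both under the limit of 0.585, which left Sod3 as the 1 gene of the list of 7 past it, from 3. Median centring left 2. Over the measurable genes 6.45% were past it, and Sod3 is measurable through the labelled knockout pool alone. Atp7a, the pump that brings copper into the secretory pathway, differed by 0.25. Ccs, the chaperone of Sod1, named after its value was seen, differed by -0.06.

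Catalase, the peroxisomal enzyme that splits hydrogen peroxide, read alike in both pools. Cat stood at 7.78 in wild type and at 7.72 in the labelled knockout, a difference of -0.06, and 82.4% of measurable genes had a difference of larger size. Of the 18 measurable genes of the catalase and peroxisome list, 0 were past 1.5-fold in either direction, and the median was -0.00. The largest differences were those of Pxmp2, a channel of the peroxisome membrane (-0.56), of Pex16 (-0.50) and Pex19 (-0.43), which insert peroxisome membrane proteins, and of Pex14 (-0.33), a docking protein of import. Subtracting the median difference of all measurable genes took Pxmp2 past 1.5-fold lower, the 1 gene of the list so moved.

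Other enzymes that remove peroxides and genes listed with them were within 1.5-fold for the most part. Of 25 measured genes of the list of glutathione peroxidases, peroxiredoxins and thioredoxins, 2 (8%) were at least 1.5-fold higher and 0 lower, with a median of 0.07. That share is near the 6.45% over the measurable genes. The list also holds Txnip, Srxn1 and the Glrx, Sesn and Msr genes, so the share is not that of peroxide-removing enzymes alone. Gpx1, the main cytosolic glutathione peroxidase, stood at 8.11 in wild type and at 8.94 in the labelled knockout, a difference of 0.83. Prdx1, a cytosolic peroxiredoxin, read 7.59 and 8.33, a difference of 0.73. Prdx1 has 2 probe sets, and the mean difference over both was 0.79. Prdx4, the peroxiredoxin of the endoplasmic reticulum, differed by 0.50 and Txn1, the cytosolic thioredoxin, by 0.49.

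**Figure D3:**
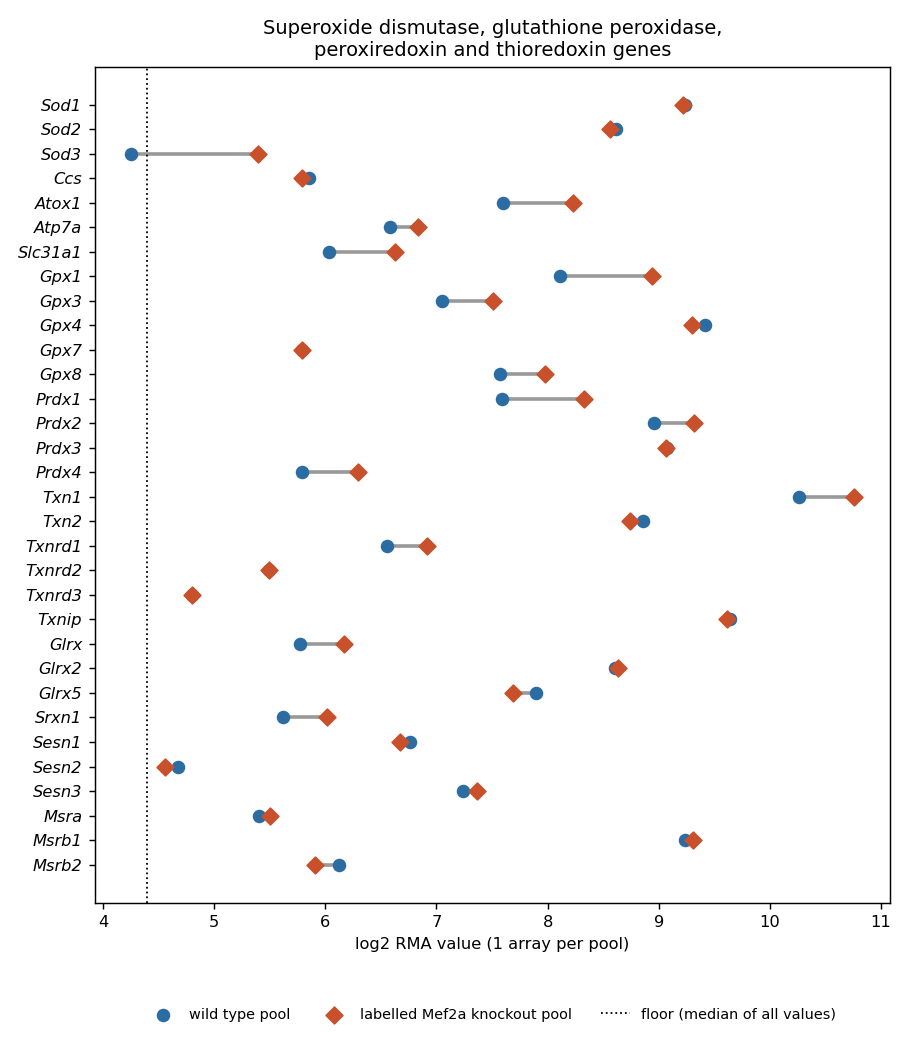
Log2 RMA values of 32 superoxide dismutase, copper delivery, glutathione peroxidase, peroxiredoxin and thioredoxin genes in wild type (circles) and labelled Mef2a knockout (diamonds), 1 array per pool, with the floor as a dotted line. Sod3, Gpx1, Prdx1, Atox1 and Slc31a1 show the widest gaps, and Sod1, Sod2 and Prdx3 nearly coincide.

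Of 18 measurable genes of glutathione synthesis and of NRF2, the factor that induces antioxidant enzymes, 3 were at least 1.5-fold higher and 0 lower, with a median of 0.15, beside 6.45% and 1.90% over the measurable genes. These were Mgst1, a membrane glutathione transferase (0.81), Hmox1, which breaks heme down (0.67), and Tkt, a transketolase of the pentose phosphate pathway (0.66). Pgd, an enzyme that yields NADPH in the same pathway, differed by 0.51. The rate-limiting enzyme of glutathione synthesis is made of Gclc (0.13) and Gclm (0.10), and the factor itself is encoded by Nfe2l2 (0.42). These last 3 genes, named after their values were seen, lay within 1.5-fold. Among other enzymes that make oxidants, 6 of 10 reached the floor, with 0 higher and 2 lower past 1.5-fold, beside the same 6.45% and 1.90%. The 2 were Nos1, the nitric oxide synthase of the fibre membrane (-1.33), and Aox1, an aldehyde oxidase (-0.62). Xdh, which yields superoxide when it oxidises purines, differed by 0.25, and Nos3, the endothelial nitric oxide synthase, by -0.12. Mpo, the myeloperoxidase of neutrophils, and Nos2, the inducible synthase of activated macrophages, were below the floor in both pools.

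Over all 8 pathway lists, with each gene counted once and the 9 genes left out, 22 of 97 measurable genes (22.7%) exceeded 1.5-fold upwards and 2 (2.06%) downwards, beside 6.45% and 1.90% of all measurable genes. Of the 22, 14 are activators of the oxidase, among them Btk, which is measurable through the labelled knockout pool alone.

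Markers of macrophages differed by as much as the oxidase subunits in the same RNA. Of 18 measured macrophage and monocyte markers, 17 were at least 1.5-fold higher and 0 lower, beside 6.45% and 1.90% over the measurable genes. The differences of these markers ran from 0.41 (Aif1) to 2.11 (Msr1), with a median of 0.98, next to 0.97 for the 5 subunits. The summed level of the markers on the linear scale was 5034 in wild type and 10610 in the labelled knockout, a ratio of 2.11. No marker was below the floor in either pool. Cd14 (1.61), Cd68 (1.45) and Tyrobp (1.34) followed Msr1. Spi1, which encodes PU.1, a factor that myeloid cells need, read 5.62 and 6.69, a difference of 1.07. The part of these cells in the differences of the subunits was not tested.

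Neutrophils carry the same oxidase, and their defining genes were mostly below the floor. Of 15 neutrophil markers, 12 were below the floor in both pools, among them S100a8 (3.26 and 3.80), S100a9 (3.53 and 3.81) and Ly6g (1.87 and 1.96), named after their values were seen. The 3 that reached it were Mmp9 (3.58), which macrophages also make, Lcn2 (0.94) and Csf3r (0.38). Of these 3, 2 were at least 1.5-fold higher and 0 lower, beside 6.45% and 1.90% over the measurable genes. No measurable gene had a larger difference than Mmp9. The summed level of the list was 194 in wild type and 632 in the labelled knockout. Most of that gap is Mmp9, and without it the sum was 158 and 202, over genes nearly all below the floor. The sum of the macrophage markers was taken over its whole list, with no shared gene left out in this way. The part of neutrophils in the differences of the subunits was not tested. All 11 measured lymphocyte markers were below the floor in both pools, with a summed level of 112 and 102.

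The lists for the other cells of the tissue differed little beside the subunits. The counts past 1.5-fold given next stand beside 6.45% higher and 1.90% lower over the measurable genes. Fibroblast markers, whose cells also make Sod3 and Nox4, had a median of 0.12 and a summed level of 13244 and 14802. Of these 11 markers, 1 (9.09%) was at least 1.5-fold higher (Thy1, 0.62), near the share over the measurable genes. Smooth muscle and pericyte markers had a median of 0.05 over 9 measurable genes and a summed level of 2516 and 2658. Of these 9, 1 (11.1%) was at least 1.5-fold higher (Pdgfrb, 0.65) and 0 were lower. Abcc9 differed nearly as much in the other direction (-0.58), just within 1.5-fold. Endothelial markers had a median of -0.06, with 0 of 10 past 1.5-fold and a summed level of 1155 and 1153. Adipocyte markers had a median of -0.04 over 7 measurable genes, with Plin4 lower (-1.05), and a summed level of 1726 and 1760. All 16 muscle fibre markers reached the floor in both pools with values from 8.78 to 12.56. That checks the label of muscle alone, and not which muscle, the injury or the day. The fibre markers were lower in the labelled knockout pool by small amounts, with a median of -0.19 and 1 past 1.5-fold (Myh2, -0.62). Their summed level was 46494 and 41560. What these cell types contribute to the differences of Sod3 and Nox4 was not tested.

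**Figure D4:**
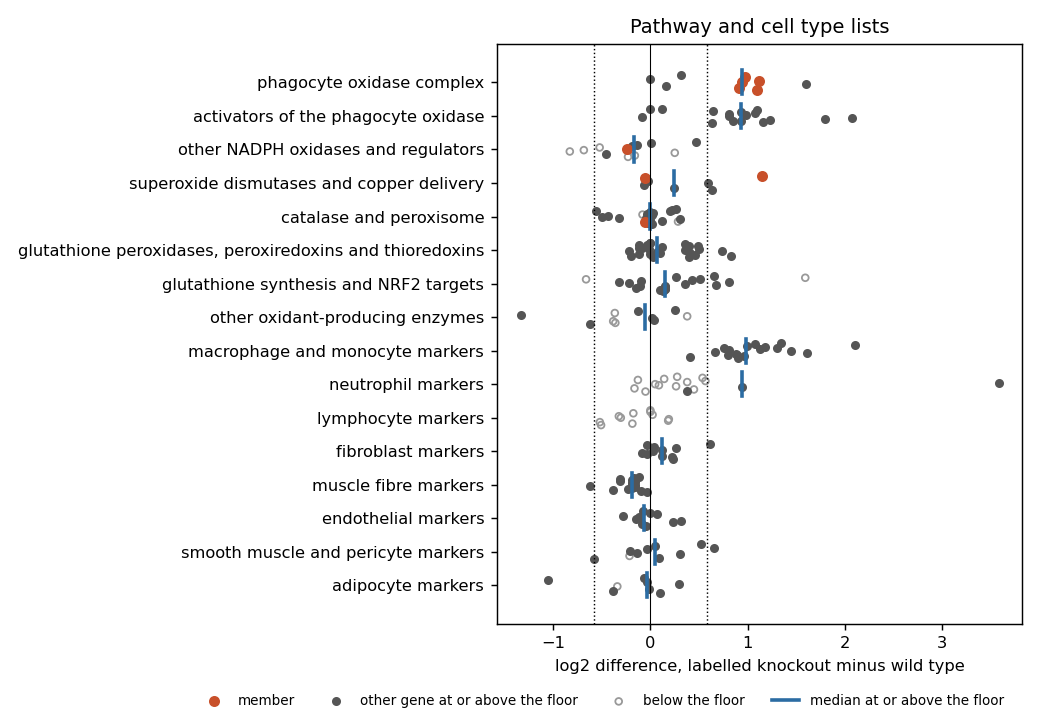
Labelled knockout minus wild type difference (log2) for the genes of 8 pathway lists and 8 cell type lists, with the genes described here in orange, other measurable genes in dark grey, genes below the floor as open circles, list medians as blue bars and 1.5-fold as dotted lines. The medians of the phagocyte oxidase complex (0.95), its activators (0.93) and the macrophage markers (0.98) lie beyond the dotted line, and that of the neutrophil markers (0.94) rests on 3 genes.

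Among all measurable genes, the pair of values nearest to that of Cybb belonged to C1qc, a chain of complement C1q made by macrophages (8.63 and 9.52, at a distance of 0.05 log2 units over the 2 arrays). Hexa, a lysosomal hexosaminidase (8.70 and 9.68, distance 0.13), and Atp6v1b2, a subunit of the lysosomal proton pump (8.53 and 9.48, distance 0.15), came next. Only 1 gene lay within 0.1 of Cybb. For Cat the nearest were Kpna1 (distance 0.01), Nfs1 (0.01) and Cdh13 (0.02), in a part of the range where 60 genes lay within 0.1 of it. With 2 arrays such nearness says only that both values are alike, and it depends in part on how well each gene's probes bind.

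Ncf4 and Rac2 lie near each other on chromosome 15, with 10 protein-coding genes between them in RefSeq's GRCm38.p6 order. Of these, 7 reached the floor, and 2 were at least 1.5-fold higher and 0 lower, beside 6.45% and 1.90% over the measurable genes. The 2, named after their values were seen, were Csf2rb (5.69 and 6.83, a difference of 1.13) and Csf2rb2 (0.76), which encode closely related receptor chains for myeloid growth factors and may share probe signal, so that their separate values are uncertain. The other 5, which included Mpst (-0.32) and C1qtnf6 (0.46), lay within 1.5-fold.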

How the data were processed

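RNA of 5 mice per genotype was pooled and each pool was hybridised to 1 array, per the labels' protocols. The deposited log2 values were made by the authors with the RMA method of Affymetrix Expression Console, as the submitters' processing notes name them. The sources used here give no version or settings. After sorting, the 2 arrays differ by at most 0.139 log2 units, so a shift shared by most genes cannot be seen.

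Of 35557 probe sets, 21789 carried 1 gene symbol, 1621 several and 12147 none. Only the first were used, and for 999 genes with more than 1 probe set the one with the highest mean was taken. Of 19938 gene symbols, 19855 were found by gene identifier in RefSeq's table of GRCm38.p6. Each of the 9 genes had 1 probe set.

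Differences, counts past 1.5-fold and medians came from pandas 2.3.3 and numpy 2.4.6 under Python 3.11.15. With 1 array per group no test was made and no p-value is given. The number of arrays limits the precision. Alternatives were median centring, a mean over a gene's probe sets, removal of a loess trend (statsmodels 0.14.6, span 0.3), no floor, a floor at percentile 75 of the table and a 2-fold limit. Genes named are the 9, Rac1, Sod1, Mef2a, Spi1, up to 4 genes of largest difference at or above the floor per list, and the 3 genes nearest to Cybb and to Cat. The lowest and highest genes of a marker list also fall under this rule, though not all of them are named. All others were named after their values were seen, also where this is not said beside them. The genes and lists were chosen with earlier results of these data known. Some genes of the lists are not reported here.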

Additional observations from a re-analysis of the deposited data

How the results depend on the processing

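At a 2-fold limit, 3 in place of 6 of the 9 genes counted as higher. The other alternatives left the 9 genes' count higher at 5 or 6, the 5 being under a floor at the 75th percentile (6.18), which leaves Sod3 out, and the count lower at 0 throughout. The median difference over the genes ran from 0.89 with the loess trend removed to 0.95. Median centring shifts every difference by -0.03 and the loess trend by a median of -0.04 over measurable genes. The mean of all probe sets could not move these genes, each having 1. Over centring and the loess trend, Cybb ran from 0.89 to 0.91, Ncf1 from 0.88 to 0.95, Sod3 from 1.12 to 1.19, Nox4 from -0.29 to -0.24, Sod2 from -0.09 to -0.05 and Cat from -0.11 to -0.06. Over the pathway lists, with the 9 genes included and each gene counted once, 25 to 28 of 106 genes were at least 1.5-fold higher and 2 or 3 lower. No paired analysis was possible because each group has 1 array, and no array could be left out. The precision of each value cannot be estimated from 1 array per pool.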

Other observations

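Some genes of glutathione supply and of the other oxidases had values below the floor in both pools, where a log2 difference has little meaning, and they entered no count. Slc7a11, the cystine importer that feeds glutathione synthesis, stood at 2.42 in wild type and at 4.01 in the labelled knockout. Nqo1, a quinone reductase induced by NRF2, read 3.89 and 3.23, and Nox1, the oxidase of the colon, read 2.43 and 1.60. These genes were named after their values were seen.

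Of the 35557 probe sets, 1961 had the same value in both pools to the last deposited digit, and among genes of the lists these included Rac1, Vav2, Pex6, Gpx7, Txnrd3 and the endothelial gene Tek. A difference of exactly 0.00 at such a gene is therefore not rare in this table. The cause was not tested.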
